A study of Homo sapiens with 6 samples.

Results

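The mammalian circadian clock is a transcriptional loop. BMAL1 pairs with CLOCK or its paralogue NPAS2 and activates genes with E-box elements, among them the period (PER) and cryptochrome (CRY) genes, whose protein products then block the activators. A second loop works through ROR elements, which RORA and its relatives activate and NR1D1 and NR1D2 (REV-ERBs) repress, so that BMAL1 and other ROR-element genes peak in the opposite phase to the E-box genes. The casein kinases 1 delta and epsilon phosphorylate PER proteins and set how long they last. Poly(ADP-ribose) polymerase 1 is known to ADP-ribosylate the CLOCK protein in mouse liver, which gives the pathway a link to the chains that poly(ADP-ribose) glycohydrolase (PARG) removes.

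The 10 genes described here are the clock activators BMAL1 (formerly ARNTL), CLOCK and NPAS2, the ROR-loop gene RORA and the ROR-element gene NFIL3, the cryptochromes CRY1 and CRY2, the E-box-binding repressor BHLHE40, and the kinases CSNK1D and CSNK1E. They were chosen by symbol from the 60708 gene identifiers that were counted, and each symbol matched 1 identifier. RNA was sequenced from U2OS cells, an established human osteosarcoma line that is also a widely used model of the clock. Wild-type cells received either the solvent DMSO or 25 µM of the PARG inhibitor PDD00017273 (PARGi), in both cases for 4 days, with 3 biological replicates in each group. The time of day at harvest and any synchronisation of the cultures are not given in the sources used here, so the clock phase of each library is not known. Each value is an average over the cells of a culture. In such bulk RNA, fewer cells expressing a gene and less RNA per cell cannot be told apart.

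Total counts ran from 60286931 to 80605145 per library and were not apart between the groups (3 libraries each, p = 0.7 by a two-sided exact permutation test whose smallest possible p is 0.1). Counts were scaled with the trimmed mean of M-values (TMM) and are given as CPM, a count relative to the scaled total of its library. Of 20409 genes with enough counts for a test, 24.3% differed between the groups at a Benjamini-Hochberg adjusted p of 0.05 in edgeR's quasi-likelihood test, 13.2% as higher and 11.0% as lower in PARGi. The share of these calls that were higher was 54.5%, and 40.5% with upper-quartile scaling. Among the markers of the line, VIM stood at 2476 ± 57.7 CPM and COL1A1 at 4374 ± 268 CPM in DMSO (SD, n = 3), whereas TWIST1 was near 0. Of the 7 line markers, 6 were tested, 3 passed as lower and the other 3 (VIM, COL1A1 and FN1) did not pass. The lower ones were COL1A2, a collagen gene, from 13.0 ± 1.38 to 7.41 ± 0.685 CPM (edgeR adjusted p = 1.60e-08), RUNX2, an osteoblast factor, from 83.3 ± 1.14 to 69.0 ± 0.606 CPM (4.96e-08), and SPARC, a matrix protein gene, from 1677 ± 17.1 to 1583 ± 10.9 CPM (0.00653). The summed level of the 7 markers lay between 9900.5 and 10690.0 CPM in DMSO and between 9984 and 10079 CPM in PARGi. Summed blood cell markers (6 genes) did not exceed 1.59 CPM in any library. Summed epithelial markers (6 genes) stood between 31.6 and 32.9 CPM in DMSO and between 22.2 and 25.5 CPM in PARGi, mostly KRT14, a basal keratin, which fell from 22.4 ± 0.761 to 14.3 ± 1.77 CPM (edgeR adjusted p = 1.33e-08). CDH1, the defining epithelial cadherin, rose from 0.718 ± 0.0247 to 1.14 ± 0.208 CPM (edgeR adjusted p = 0.0104). The part of these markers in the results on clock genes was not tested.

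A stretch of 30 bases around an E-box is shown first for the member whose transcript changed, BHLHE40. The same is shown for 4 E-box-driven genes measured beside it, with 1 match per gene. They were picked because BHLHE40 rose while 3 of these 4 genes, with the same element, fell and PER1 did not pass the test. CIART, a scarce E-box-driven gene with 3 E-boxes in its window, did not pass either and is not shown. The letters come from RefSeq's promoter windows on GRCh38.p14, of which the 250 bases before the annotated start were searched, and the capitals mark the E-box CACGTG.
BHLHE40: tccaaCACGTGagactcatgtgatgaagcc
BHLHE41: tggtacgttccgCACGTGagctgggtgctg
TEF: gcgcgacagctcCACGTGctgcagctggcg
NR1D2: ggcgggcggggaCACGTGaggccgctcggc
PER1: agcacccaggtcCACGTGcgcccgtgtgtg
The stretches lie at chr3:4979187-4979216 (plus strand) for BHLHE40, chr12:26125068-26125097 (minus strand) for BHLHE41, chr22:41367248-41367277 (plus strand) for TEF, chr3:23945954-23945983 (plus strand) for NR1D2 and chr17:8152560-8152589 (minus strand) for PER1. The E-box began 245 bases before the annotated start in BHLHE40 and 48 bases before it in its paralogue BHLHE41. In GENCODE 29 the BHLHE40 gene begins at 4979116, so that its stretch falls inside the gene as annotated there.

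Among the other members, the E-prime-box CACGTT, which CLOCK and BMAL1 also bind, and the ROR core AGGTCA were found in a few windows. Only these letters were searched, not the bases beside them. The matches are shown because their genes did not pass the test. Capitals again mark the match, and both strands were searched, so that AACGTG and TGACCT are the same sequences read on the other strand.
CRY1: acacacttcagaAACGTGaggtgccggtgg
CRY2: gtgataataggaAGGTCAgctgtcagtctt
NFIL3: acgtagcgcggcgctcggaacTGACCTact
CSNK1E: gtggcttggctaAACGTGcaccactcggag
CLOCK: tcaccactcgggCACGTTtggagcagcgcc
They lie at chr12:107093621-107093650 (minus strand) for CRY1, chr11:45847044-45847073 (plus strand) for CRY2, chr9:91423833-91423862 (minus strand) for NFIL3, chr22:38318147-38318176 (minus strand) for CSNK1E and chr4:55546102-55546131 (minus strand) for CLOCK. In GENCODE 29 the CRY1, NFIL3 and CLOCK genes begin at 107093829, 91423862 and 55547138 on the minus strand. Their stretches thus also fall inside the genes as annotated there. RefSeq's table held windows for 9 of the 10 members (14 windows, CSNK1D being the gene without an entry). Of these 9 genes, 1 had an E-box (BHLHE40), 4 had an E-prime-box (CRY1, CRY2, CSNK1E and CLOCK) and 3 had a ROR core (CRY2, NFIL3 and CSNK1E). Of 10 E-box-driven repressor and output genes described further on, 5 had an E-box (BHLHE41, TEF, NR1D2, PER1 and CIART). A further 2 had an E-prime-box (PER2 and NR1D1), and DBP, HLF and PER3 had neither in these windows. Over all 35116 windows of the same length, 6.35% held the E-box, 4.55% the E-prime-box and 12.1% the ROR core. Counted in the same way, per window, 1 of the members' 14 windows held the E-box, 4 the E-prime-box and 4 the ROR core, and 6 of the 14 windows of the E-box-driven genes held the E-box. Neither the D-box TTATGTAA, in 0.834% of all windows, nor the cyclic AMP element TGACGTCA, in 1.65%, matched in a member's window. The D-box matched in 2 of the E-box-driven genes (PER3 and NR1D2). These letter matches describe the windows only.

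Transcripts of the clock's activators, cryptochromes and kinases differed little from their level in solvent, and 1 member rose. Of the 10 members, all had enough counts for a test and 1 passed the threshold, BHLHE40 as higher, against 24.3% of all tested genes. The remaining 9 had log2 fold changes between -0.059 and 0.055, 5 above 0 and 4 below (with CSNK1D below 0 under upper-quartile scaling and CRY2 above 0 under DESeq2), and their 95% confidence intervals together spanned -10.2% to 9.36%. The smallest unadjusted p among these 9 was 0.0758 (CLOCK, edgeR). BHLHE40 was also the only member whose groups did not overlap, where 38.0% of all tested genes had separated groups. The median absolute log2 fold change was 0.035 over the 10 members and 0.11 over all tested genes, and the signed medians were 0.019 and -0.0070. The tested genes include scarce ones with noisier estimates, such as CIART (SE 0.449), while the members' SEs ran from 0.025 to 0.049. Comparisons of absolute estimates with all tested genes, here and below, do not allow for this, and its part in them was not tested.

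**Figure D1:**
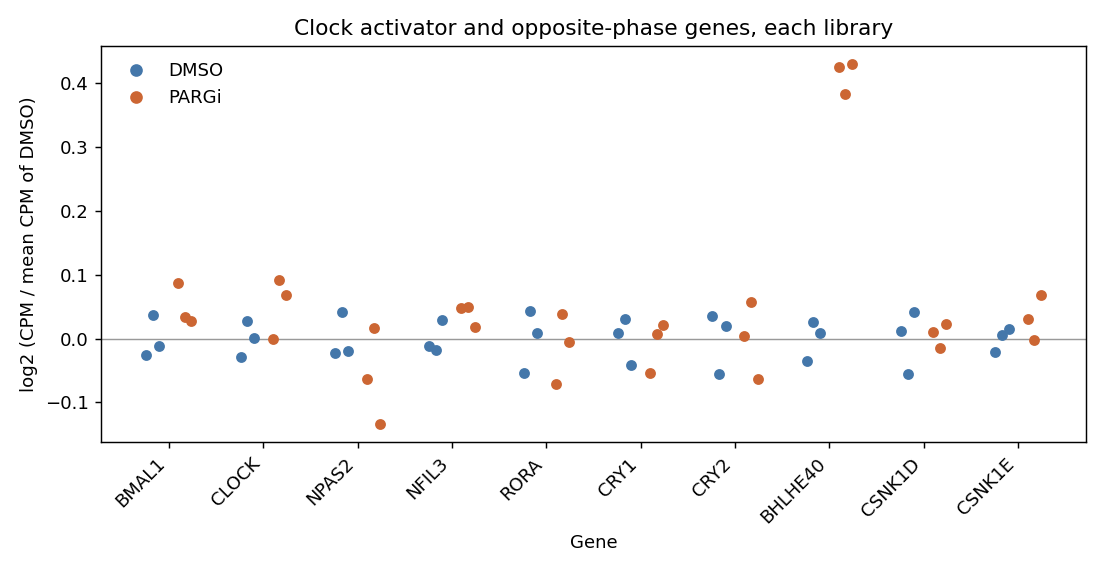
Level of each of the 10 genes in each of the 6 libraries, as the log2 ratio of its TMM-scaled CPM to the mean of the 3 DMSO libraries (vertical axis), with DMSO in blue and PARGi in orange. The 3 PARGi libraries of BHLHE40 sit at about its log2 fold change of 0.41, and the points of the other 9 genes intermingle around 0.

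BMAL1 encodes the partner with which CLOCK or NPAS2 activates E-boxes. It lies on the plus strand of chromosome 11, from 13276652 to 13387266 with the identifier ENSG00000133794.20 (positions of all members are those of GENCODE 29, GRCh38). Its level was 23.9, 25.0 and 24.2 CPM with DMSO, in the order of replicates 1 to 3 used throughout, and 25.9, 25.0 and 24.8 CPM with PARGi. The groups overlapped, with PARGi replicate 1 the highest library and DMSO replicate 1 the lowest. The log2 fold change of BMAL1 was 0.048 ± 0.039 (SE, edgeR adjusted p = 0.416), and the interval ran from -2.23% to 9.35%.

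CLOCK, on the minus strand of chromosome 4 (ENSG00000134852.15, 55427903 to 55547138), encodes a partner of BMAL1. It stood at 69.9, 72.6 and 71.3 CPM in DMSO and at 71.2, 76.0 and 74.7 CPM in PARGi. PARGi replicates 2 and 3 lay above all DMSO libraries, but PARGi replicate 1 lay among them. At a log2 fold change of 0.055 (SE 0.030) CLOCK came closest to the threshold of the 9 members that missed it, with an edgeR adjusted p of 0.193 and an interval from -0.428% to 8.39%. Its exons share 76 bases with TMEM165 on the opposite strand, which averaged 68.0 ± 0.941 CPM with DMSO and 71.8 ± 1.77 CPM with PARGi (edgeR adjusted p = 0.0509).

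NPAS2, on the plus strand of chromosome 2 (ENSG00000170485.17, 100820152 to 100996829), encodes the partner that can replace CLOCK. Its level was 18.6, 19.5 and 18.7 CPM in DMSO and 18.1, 19.1 and 17.2 CPM in PARGi. PARGi replicate 3 was the lowest library, and PARGi replicate 2 lay within the DMSO range. The log2 fold change was -0.059 (SE 0.047, edgeR adjusted p = 0.402), with the interval that reached lowest of any member, from -10.2% to 2.62%.

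The ROR loop was represented by RORA, the activator of ROR elements, and NFIL3, a repressor of D-box genes whose own gene carries ROR elements. RORA, on the minus strand of chromosome 15 (ENSG00000069667.16, 60488284 to 61229319), stood at 14.1, 15.1 and 14.7 CPM in DMSO and at 13.9, 15.0 and 14.6 CPM in PARGi. The 3 values of each group covered nearly the same range. Its log2 fold change was -0.010 (SE 0.049, edgeR adjusted p = 0.913, interval -7.48% to 6.56%). Of the antisense genes that overlap its exons, RORA-AS1 had the most counts and averaged 0.278 ± 0.033 CPM with DMSO and 0.415 ± 0.103 CPM with PARGi (edgeR adjusted p = 0.143).

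NFIL3, on the minus strand of chromosome 9 (ENSG00000165030.4, 91409045 to 91423862), had 16.5, 16.4 and 16.9 CPM in DMSO and 17.2, 17.2 and 16.8 CPM in PARGi. PARGi replicates 1 and 2 were the highest libraries, and PARGi replicate 3 lay below DMSO replicate 3. The log2 fold change was 0.038 (SE 0.044, edgeR adjusted p = 0.595, interval -3.64% to 9.36%).

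The cryptochromes are the repressors that hold CLOCK and BMAL1 inactive, and CRY1 responds both to E-boxes and to ROR elements. CRY1, on the minus strand of chromosome 12 (ENSG00000008405.12, 106991364 to 107093829), was at 53.6, 54.4 and 51.7 CPM in DMSO and at 51.3, 53.5 and 54.0 CPM in PARGi. CRY2, on the plus strand of chromosome 11 (ENSG00000121671.12, 45847118 to 45883248), was at 24.5, 23.0 and 24.3 CPM in DMSO and at 24.0, 24.9 and 22.9 CPM in PARGi. The libraries of both groups were interleaved for both genes. The log2 fold change was -0.0062 for CRY1 (SE 0.032, edgeR adjusted p = 0.918, interval -4.86% to 4.20%). For CRY2 it was -0.0012 (SE 0.042, edgeR adjusted p = 0.989, interval -5.97% to 6.18%). The estimate was larger in absolute terms in 99.4% of all tested genes, whether or not they were called.

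BHLHE40 (DEC1) encodes a basic helix-loop-helix repressor that binds E-boxes and is itself switched on through them. The gene is also known to respond to hypoxia and other stresses. It lies on the plus strand of chromosome 3, from 4979116 to 4985323, with the identifier ENSG00000134107.5. The reads counted for it numbered 17751, 18575 and 21455 with DMSO (replicates 1 to 3) and 23059, 27607 and 31037 with PARGi. After scaling, the level was 279.7, 292 and 288 CPM in DMSO and 384, 373 and 386 CPM in PARGi. Every PARGi library lay above every DMSO library, and the gap between the groups was wider than the range within either.

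The mean of BHLHE40 rose from 287 ± 6.19 to 381 ± 6.83 CPM (SD, n = 3 each), which on the log2 scale is 0.41 ± 0.025 (SE, edgeR adjusted p = 1.55e-11). In percent this is 33.0%, with a 95% confidence interval from 28.3% to 37.9%. Of all tested genes, 11.2% had a larger absolute estimate of the log2 fold change. The antisense gene BHLHE40-AS1, whose exons share 4 bases with it, averaged 1.08 ± 0.0844 CPM with DMSO and 1.09 ± 0.201 CPM with PARGi (edgeR adjusted p = 0.977).

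Neither kinase gene passed the test. CSNK1D, on the minus strand of chromosome 17 (ENSG00000141551.14, 82239023 to 82273731), stood at 264, 252 and 269.6 CPM in DMSO and at 264, 259 and 266 CPM in PARGi. All 3 PARGi values fell inside the DMSO range. Its log2 fold change was 0.0056 (SE 0.027, edgeR adjusted p = 0.912, interval -3.38% to 4.31%). CSNK1E, on the minus strand of chromosome 22 (ENSG00000213923.13, 38290691 to 38318084), stood at 71.1, 72.4 and 72.8 CPM in DMSO and at 73.7, 72.0 and 75.6 CPM in PARGi. PARGi replicate 2 lay within the DMSO range and the other PARGi libraries above it. The log2 fold change of CSNK1E was 0.032 (SE 0.028, edgeR adjusted p = 0.457, interval -1.80% to 6.47%). The readthrough gene TPTEP2-CSNK1E covers 21.1% of its exon length on the same strand and had 16 counts over all libraries, so reads of the shared exons may have been left uncounted and the level of CSNK1E may be understated.

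**Figure D2:**
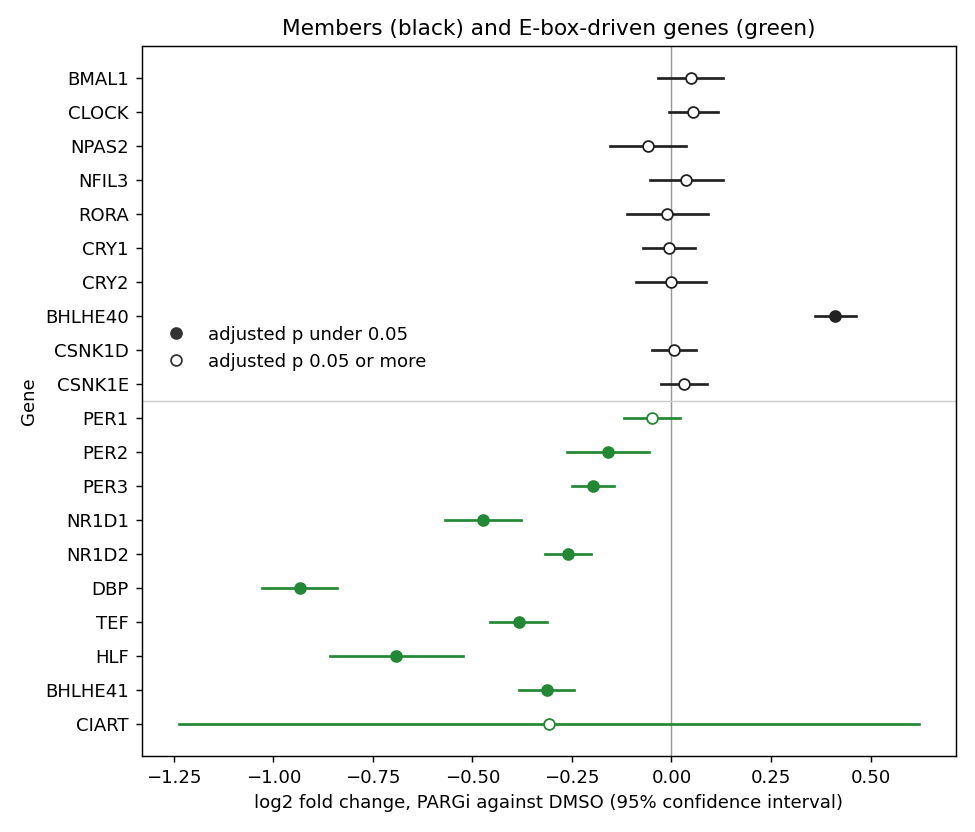
Log2 fold change of PARGi against DMSO with its 95% confidence interval (horizontal axis) for the 10 members in black and 10 E-box-driven repressor and output genes in green. Filled points passed an adjusted p of 0.05. Of the black points, that of BHLHE40 at 0.41 is filled and the others lie within 0.06 of 0, while 8 of the green points are filled and lie below 0.

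In a list of 10 E-box-driven repressor and output genes, all 10 were tested, 8 passed as lower and 0 as higher, against 11.0% of all tested genes called lower. All 10 estimates were below 0, and the median log2 fold change was -0.31, compared with -0.0070 over all genes. Earlier results of these data were known when the list was drawn up, so it is no independent evidence of its direction. DBP and HLF, activators of D-box genes from the proline- and acid-rich leucine zipper family, fell most. DBP went from 25.9 ± 0.753 to 13.6 ± 0.649 CPM, a log2 change of -0.93 ± 0.046 (SE, edgeR adjusted p = 3.82e-13), and HLF from 5.84 ± 0.161 to 3.61 ± 0.192 CPM (-0.69). TEF, of the same family, fell from 41.8 ± 0.470 to 32.0 ± 0.949 CPM (-0.38).

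The repressors of ROR elements were lower too. NR1D1 fell from 29.3 ± 1.01 to 21.1 ± 1.45 CPM (log2 fold change -0.47) and NR1D2 from 117 ± 2.86 to 97.2 ± 2.41 CPM (-0.26). BHLHE41, the paralogue of BHLHE40, fell from 63.0 ± 2.18 to 50.8 ± 1.81 CPM (-0.31, edgeR adjusted p = 1.52e-07), whereas BHLHE40 rose. Of the period genes, PER3 fell by 0.20 on the log2 scale and PER2 by 0.16 (edgeR adjusted p = 0.0219). PER2 lost its call without DMSO replicate 1, without DMSO replicate 3 and without PARGi replicate 2, with log2 fold changes of -0.16, -0.11 and -0.13, and with DESeq2 (-0.15). PER1 (-0.048, edgeR adjusted p = 0.340) and the scarce CIART (0.161 CPM in DMSO, edgeR adjusted p = 0.678) did not pass. The exons of several of these genes are overlapped on the opposite strand. The overlaps include THRA (9.49% of NR1D1), SPHK2 (10.1% of DBP), SSPN (4.10% of BHLHE41) and UTS2 (10.7% of PER3, with 15 counts over all libraries). The strand setting of the counting is not given in the sources used here.

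Most genes that act on the stability of clock proteins did not pass. Of 17 such genes, all tested, 2 passed (11.8%, against 24.3% of all tested genes), both as higher, with a median log2 fold change of 0.025. They were BTRC, a ubiquitin ligase subunit that recognises phosphorylated PER proteins, from 35.0 ± 0.697 to 38.8 ± 1.36 CPM (log2 fold change 0.15, edgeR adjusted p = 0.00306), and TIMELESS, a replication fork protein with a reported clock role, from 163 ± 3.44 to 177 ± 2.01 CPM (0.11). CSNK1A1, a further casein kinase 1 gene, did not pass (0.044, edgeR adjusted p = 0.273), and 37.4% of its exon length is shared with another annotated gene on its strand.

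Of 12 cofactor and further ROR family genes, 11 were tested, and 4 passed (36.4%, against 24.3% of all tested genes), 1 as higher and 3 as lower (13.2% and 11.0% of all tested genes), with a median of -0.042. PPARGC1A, a coactivator that works with RORA at the BMAL1 promoter, fell from 8.93 ± 0.288 to 5.38 ± 0.487 CPM, a log2 change of -0.74 ± 0.072 (SE, edgeR adjusted p = 3.98e-08). The acetyltransferases CREBBP (-0.14) and EP300 (-0.12), which serve CLOCK and BMAL1 among many factors, fell by smaller amounts. RORB, a relative of RORA, rose from 4.41 ± 0.302 to 5.32 ± 0.517 CPM (0.27, edgeR adjusted p = 0.0226). The call of RORB was lost without DMSO replicate 1 (0.22), without PARGi replicate 2 (0.22), without PARGi replicate 3 (0.25) and with DESeq2 (0.28).

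Levels can be set side by side between genes when divided by exon length. On this scale of CPM per kilobase of exon, BHLHE40 was highest of the 10 members in DMSO, at 74.7 ± 1.61, followed by CSNK1D at 23.8 ± 0.814, CSNK1E at 11.5 ± 0.147 and CRY1 at 10.5 ± 0.268. NFIL3 (7.96 ± 0.141) and CLOCK (6.06 ± 0.115) came next. CRY2 (3.86 ± 0.128) and BMAL1 (3.62 ± 0.0827) were the only neighbours in this order whose library ranges overlapped, in DMSO and in PARGi alike. NPAS2 (1.51 ± 0.0379) and RORA (0.857 ± 0.0294) were lowest. The order of the means was the same in PARGi, where BHLHE40 reached 99.4 ± 1.78. The length used is the union of all annotated exons, 17040 bases for RORA and 2085 for NFIL3, so the level of a gene with many alternative exons is understated.

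**Figure D3:**
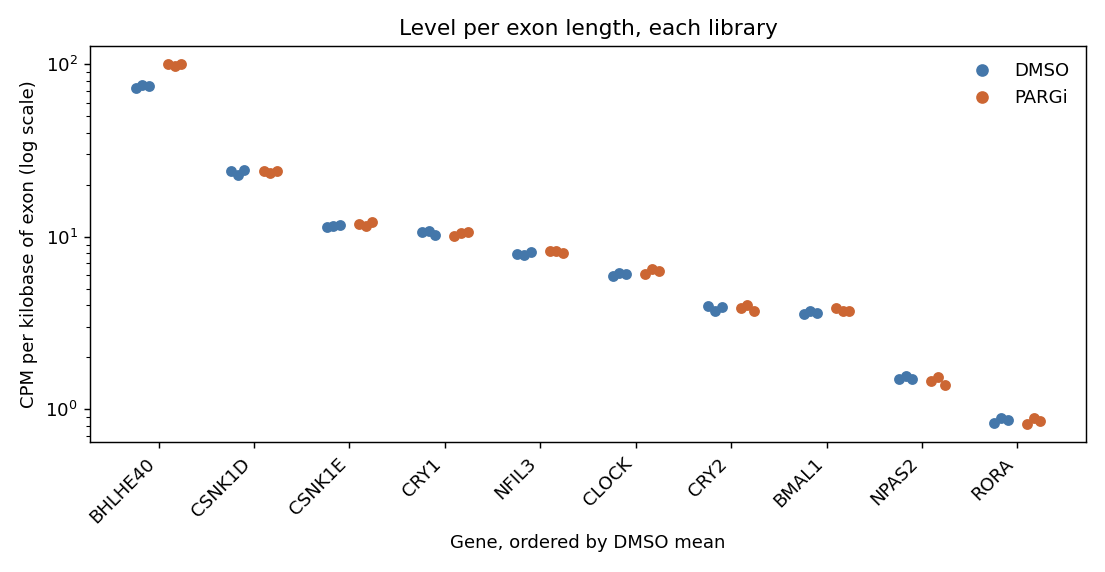
TMM-scaled CPM per kilobase of annotated exon (vertical axis, log scale) in each library for the 10 members, ordered by the DMSO mean, with DMSO in blue and PARGi in orange. The genes span from 74.7 for BHLHE40 to 0.857 for RORA in DMSO, and only BHLHE40 shows orange points clear of the blue ones.

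Ratios within a library set transcript levels side by side, here of paralogues and of genes acting on the same DNA element. Such ratios do not depend on the scaling between libraries. They are given as descriptions of the per-kilobase levels, with no test. The ratio of NPAS2 to CLOCK was 0.251, 0.252 and 0.247 in DMSO and 0.239, 0.237 and 0.217 in PARGi. All PARGi ratios thus lay below all DMSO ratios, with PARGi replicate 3 farthest below, and neither gene passed the threshold by itself. Among single genes, 38.0% of all tested had separated groups in either direction, so this separation alone says little. CRY2 to CRY1 (0.368 ± 0.0193 in DMSO, 0.370 ± 0.0204 in PARGi) and CSNK1E to CSNK1D (0.486 ± 0.0180 and 0.495 ± 0.00579) overlapped between the groups.

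A further 3 ratios, chosen after the values were seen, set a member against a falling gene that acts on the same DNA element. DBP and NR1D1 were the steepest fallers among the listed genes of their kind. HLF (-0.69), TEF (-0.38) and NR1D2 (-0.26) fell less on the log2 scale, so ratios to them would differ less between the groups. At E-boxes, the ratio of BHLHE40 to its paralogue BHLHE41 was 4.74, 4.61 and 4.69 in DMSO and 7.52, 7.59 and 8.10 in PARGi. At D-boxes, the ratio of the repressor NFIL3 to the activator DBP was 2.03, 2.03 and 1.99 in DMSO and 3.84, 4.21 and 3.82 in PARGi. At ROR elements, the ratio of the activator RORA to the repressor NR1D1 was 0.0814, 0.0818 and 0.0803 in DMSO and 0.102, 0.112 and 0.121 in PARGi. The groups did not overlap in any of these 3 ratios. The groups of BHLHE41, DBP and NR1D1 were already apart by themselves, so this adds no evidence. The log2 differences of PARGi from DMSO were 0.72, 0.97 and 0.46, and in the ratios to DBP and NR1D1 they came almost wholly from the falling gene, since NFIL3 and RORA themselves had log2 fold changes of 0.038 and -0.010.

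**Figure D4:**
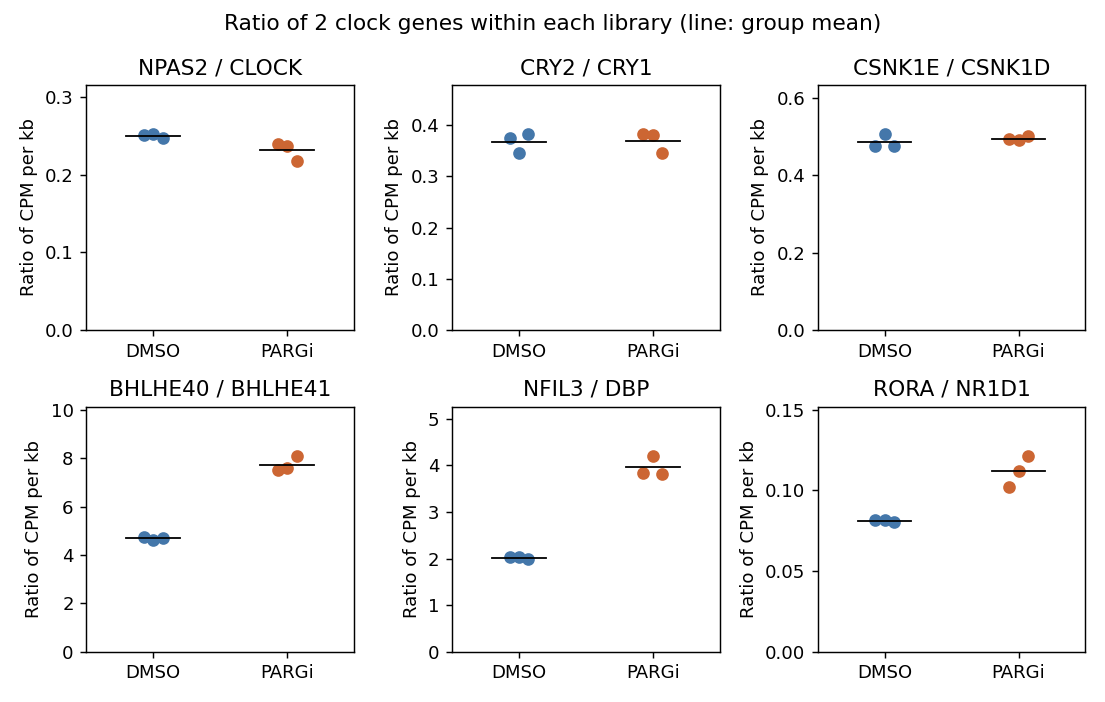
Ratio of the per-kilobase levels of 2 clock genes within each library (vertical axis, from 0), with DMSO in blue, PARGi in orange and a line at each group mean. The paralogue ratios in the top row stay within narrow ranges, with NPAS2 to CLOCK slightly lower in PARGi. The 3 ratios in the bottom row are higher in all PARGi libraries.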

How the data were processed

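The authors deposited raw counts per gene, whole numbers in 1 column for each of 6 libraries, made from total RNA with a stranded kit per the labels' protocols. The submitters' processing notes name cutadapt 1.18, STAR 2.7.3a, SAMtools 1.9, DESeq2 3.12, deepTools and hg38. The annotation release and strand setting are not given in the sources used here. Symbols came from a gene name table, positions and exon lengths from GENCODE 29 (GRCh38), and promoter windows from RefSeq.

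The whole table was tested with edgeR 4.0.16 in R 4.3.3: filterByExpr, TMM scaling, glmQLFit and glmQLFTest, two-sided, on treatment alone, with Benjamini-Hochberg adjustment over 20409 genes and a threshold of 0.05. Standard errors were derived from the log2 fold change and its F statistic. The scripts were tested on simulated data. Alternatives used limma 3.58.1, DESeq2 1.42.0, other scalings and filters, robust dispersions, a replicate block and each library left out. No pair of libraries agreed within sampling noise (chi-square of at least 2.27 per degree of freedom). Depth covers counting error only. All members are named, with the called genes of 3 further clock lists, up to 12 by smallest p, and some genes overlapping a member's exons. Overlaps not described above include, on the opposite strand, SLC16A3 and AC132872.4 for CSNK1D (4.37% and 11.4% of its exon length). NPAS2 is overlapped by AC016738.1 (5.99%) and CRY1 by AC078929.1 (1.86%), also on the opposite strand. PER1, PER2, CIART, CSNK1A1, RORB, THRA, SPHK2, SSPN and UTS2 were named after their values were seen. The members and lists were chosen with earlier results of these data known. Figures were drawn with matplotlib 3.10.9.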

Additional observations from a re-analysis of the deposited data

How the results depend on the processing

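The rise of BHLHE40 kept its direction and its call in all 14 alternatives, with log2 fold changes from 0.39 to 0.43 and edgeR, limma-voom or DESeq2 adjusted p of at most 8.36e-09, and the count of called members was 1 in each. None of the other 9 members passed in any alternative (adjusted p of 0.0881 or more), and of their 126 values 114 kept their sign. The 12 that changed sign belonged to genes whose estimates lay close to 0. They were CRY2 without the low-count filter (0.0035) and with DESeq2 (0.0027), CSNK1D with upper-quartile scaling (-0.019), and values with 1 library left out. With each library left out in turn, the log2 fold change ranged from -0.032 to 0.032 for CRY2 (0.0077 to 0.032 where the sign changed), from -0.021 to 0.026 for CSNK1D (-0.021 and -0.0024), from -0.028 to 0.015 for CRY1 (0.010 and 0.015) and from -0.038 to 0.016 for RORA (0.012 and 0.016). The cause of these sign changes was not tested. Over all genes the count of calls ran from 3607, without PARGi replicate 2, to 5096, with robust dispersions, and over the other clock lists from 12 to 15 around 14. Both groups carry the same replicate numbers, yet same-numbered libraries did not deviate together (correlations of -0.0059, 0.016 and -0.0078 across genes, and not every library correlated best with its own number). With the replicate block, 4553 genes passed in place of 4951, and no member's call changed (BHLHE40 0.41).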
